A study of Mus musculus with 24 samples.

Results

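The change of the chemotherapy response between 6 h and 24 h was followed in LLC1 cells, an established line of Lewis lung carcinoma from the mouse. For each gene, the difference between chemotherapy and untreated cells at 6 h was subtracted from the same difference at 24 h, on the scale of log2(TPM + 1). The contrast uses 12 of the 24 libraries of the series, 3 in each of 4 groups, chosen by their treatment and time labels. Untreated cells received the DMSO vehicle alone for 6 h or 24 h, and chemotherapy cells received cisplatin at 2.5 µM with pemetrexed at 2.5 µM for the same times. The other 12 libraries came from cells given trametinib at 10 nM, or trametinib with both chemotherapy drugs, for 6 h or 24 h. All cells were of this 1 line, and by its title the study concerns a MEK inhibitor, resistance to chemotherapy with immunotherapy, and the chemokine gene Cxcl10. The labels do not say whether the 3 libraries of a group came from separate cultures, so the p-values measure only the spread between libraries, which may be technical.

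Cisplatin forms crosslinks within and between DNA strands, which stall replication forks and transcribing RNA polymerase, and pemetrexed inhibits thymidylate synthase and other folate-dependent enzymes that supply nucleotides. Cells that meet such damage activate the ATR and CHK1 checkpoint kinases and p53, slow their passage through S phase and delay mitosis. Genes of S phase are largely driven by E2F factors, and genes of G2 and mitosis by the MuvB complexes with B-MYB and FOXM1, which act through a short promoter element called the cell cycle genes homology region and through CCAAT boxes.

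A TPM value is a share of all transcripts in a library, so the sequencing depth behind it is unknown, and a larger share of the cells or more RNA per cell cannot be told apart. Between 11242 and 11720 genes reached 1 TPM in the 12 libraries, and libraries of 1 group correlated at 0.982 to 0.994. Replicate 2 of chemotherapy at 24 h stood apart from the other 2 on the third principal component (22.94 against -8.67 and -9.24), which carried 7% of the variance. On it untreated 24 h replicate 3 (-18.02 against 0.74 and 4.36) and chemotherapy 6 h replicate 3 (2.33 against -10.9 and -10.89) also lay away from their groups. The keratins Krt8 (69.9 to 148 TPM) and Krt18 (252 to 361 TPM) and vimentin, Vim (3300 to 4030 TPM), were high in every library, while the epithelial markers Epcam and Cdh1 stayed at or below 0.154 TPM and 6 of 8 lung epithelium markers were under 0.5 TPM throughout. All 8 T or NK cell markers and all 4 B cell markers were under 0.5 TPM in the 12 libraries. The summed level of 8 macrophage markers was 49.4 to 53.7 TPM in chemotherapy cells at 24 h and 21.7 to 27.8 TPM in the other 3 groups. It was carried by Cd68 and Cd14, with Ptprc at 0.0121 TPM or less and Adgre1, Itgam and C1qa at 0. The summed endothelium markers were 7.1 to 12.9 TPM in chemotherapy cells at 24 h and 2.23 to 4.55 TPM in the others, carried by Pecam1, with Cdh5 at 0.0995 TPM or less.

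The response at 24 h differed from that at 6 h for a large part of the transcriptome. Of 12581 genes tested, 5668 (45.1%) were called at an adjusted p under 0.05 by limma with Benjamini-Hochberg adjustment, 3566 (28.3%) with a higher and 2102 (16.7%) with a lower effect at 24 h. Higher and lower are used below of genes called in this contrast, and its values are log2 differences ± standard error with 3 libraries per group. Counts of each gene list in this contrast are to be read against these 28.3% and 16.7% of all genes. The difference was above 1 in size for 577 of the called genes, 378 higher and 199 lower. The median over all genes was 0.063. When libraries were rescaled by their median ratio, 5870 of 12581 genes were called, 3013 higher and 2857 lower. The share of called genes with a higher effect moved from 62.9% to 51.3%, with the median shifted by 0.0803 to -0.017. List counts after rescaling are to be read against these 3013 and 2857 genes, not against 28.3% and 16.7%. By the series' own rule, a Bonferroni adjusted p under 0.10, 1409 genes (11.2%) were called.

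Most of these genes had no called chemotherapy effect at 6 h. Chemotherapy against untreated cells gave 3116 called genes (24.8%) at 6 h, 1423 (11.3%) higher and 1693 (13.5%) lower. At 24 h it gave 7447 (59.2%), 4393 (34.9%) higher and 3054 (24.3%) lower. List counts at a single time are to be read against these shares. Of the 5668 genes, 3696 (65.2%) were called at 24 h and not at 6 h, 712 were called at both times in 1 direction with the larger effect at 24 h, and 54 with the smaller effect at 24 h. A further 529 were called at 6 h and not at 24 h, 470 were called in opposite directions at the 2 times, and 207 at neither time. The opposite class depended on single libraries: it held 267 genes without untreated 6 h replicate 2, 305 without untreated 6 h replicate 3 and 281 without chemotherapy 6 h replicate 2. The class with the smaller effect at 24 h held 32 genes without chemotherapy 24 h replicate 1. Across the 12581 genes the effects at the 2 times, which have separate controls, had a Pearson r of 0.338 and a Spearman rho of 0.294. These are descriptions across genes, which are not independent replicates.

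**Figure D1:**
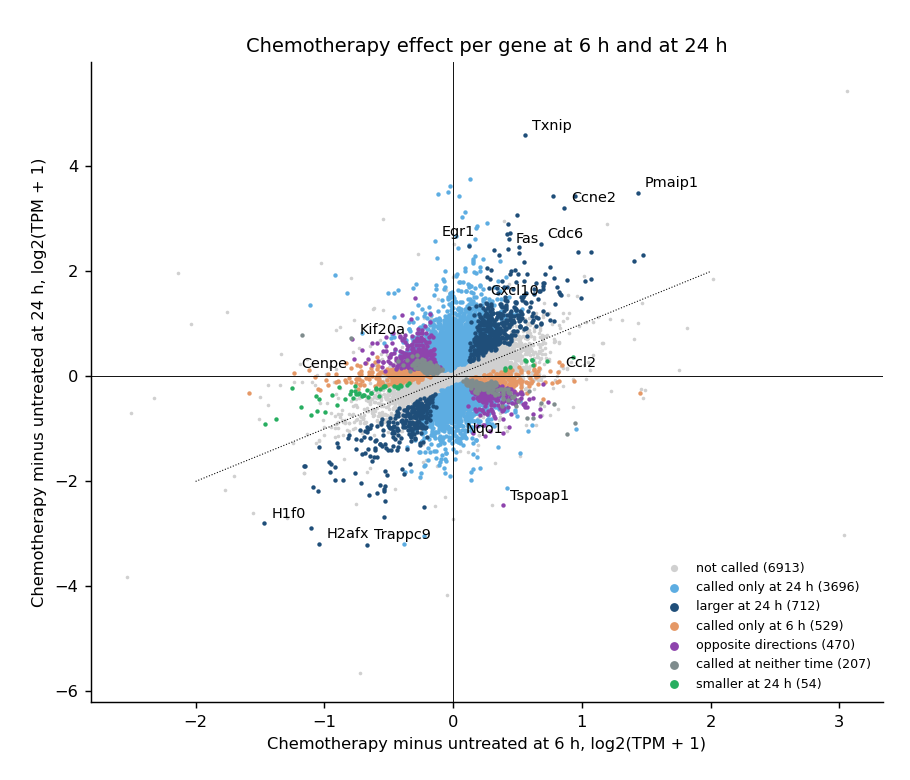
Chemotherapy minus untreated in log2(TPM + 1) at 6 h (horizontal axis) and at 24 h (vertical axis), 1 point per gene of 12581, coloured by whether and how the difference between the 2 times was called; on the dotted line the effects are equal. The 3696 genes called only at 24 h lie close to 0 on the horizontal axis, and the 470 with opposite directions lie in the upper left and lower right parts.

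Untreated cells also changed over the same hours, with 7649 genes (60.8%) called at 24 h against 6 h. Chemotherapy cells had 7980 (63.4%). Of all genes, 29.4% rose and 31.4% fell in untreated cells, and 36.1% rose and 27.3% fell under chemotherapy. Counts below of genes that rose or fell with time in 1 arm are to be read against these shares. Of the 5668 genes of the contrast, 1606 were called over time in the chemotherapy arm and not in the untreated arm, and 1401 in the untreated arm and not in the chemotherapy arm. Both arms moved in 1 direction by different amounts for 1698 genes, and in opposite directions for 886. A higher effect at 24 h can therefore sit on a level that stayed flat under chemotherapy while it fell in untreated cells, and the levels of both arms are given below.

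The largest rise among called genes with at least 5 TPM was that of Txnip (chr3:96557957-96561883 in GRCm38, plus strand), which encodes an inhibitor of thioredoxin and of glucose uptake. It was at 7.74, 8.42 and 5.46 TPM in untreated and 10.4, 9.6 and 13.1 TPM in chemotherapy cells at 6 h, and at 26, 24.1 and 24 TPM in untreated and 583, 641 and 639 TPM in chemotherapy cells at 24 h. The 3 chemotherapy libraries at 24 h lay far above the other 9. The effect was 0.56 ± 0.13 at 6 h and 4.60 ± 0.13 at 24 h, a difference of 4.04 ± 0.19 (adjusted p = 1.22e-11). The protein-coding transcript models Txnip-202 and Txnip-201 had means of 253 and 157 TPM in chemotherapy cells at 24 h and of 12.3 and 6.87 TPM in untreated cells at that time. The retained-intron models Txnip-205 and Txnip-203 had means of 110 and 92 TPM in chemotherapy cells and 3.54 and 2.03 TPM in untreated cells. A part of the gene value thus lay in models that do not encode the protein.

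Several genes that were near 0 in the other 3 groups were clearly measured under chemotherapy at 24 h. Anxa8, an annexin that binds phospholipids, stood at 17.2, 19.3 and 19.7 TPM there and at no more than 1.67 TPM in the other 9 libraries (3.63 ± 0.16). Des, the intermediate filament desmin of muscle, stood at 12.6, 13 and 13.8 TPM and at no more than 0.699 TPM elsewhere (3.05 ± 0.17). The carboxylesterase genes Ces2g and Ces2e reached means of 13.1 and 7.59 TPM from means of at most 0.299 and 0.075 TPM (3.39 ± 0.11 and 2.96 ± 0.16). In all 4, the chemotherapy libraries at 24 h did not overlap the other 9. Bglap2 (3.56 ± 0.35), Ckmt1, a mitochondrial creatine kinase (2.67 ± 0.24), Atg9b, an autophagy gene (2.66 ± 0.11), and Sytl1, a synaptotagmin-like gene of vesicle traffic (2.66 ± 0.20), also lay above the other 9 libraries. These genes were named for large rises in the same libraries, so this separation is partly a result of that choice. Its share over all genes was not counted. Among the 12 libraries, only those of chemotherapy at 24 h reached 1 TPM for Bglap2, Des, Ces2g and Ces2e. The passing of these genes through the filter may thus rest on the same libraries. The size for such low genes depends on the pseudocount, and with 0.1 in place of 1 the difference was 6.29 for Bglap2 and 5.20 for Ces2e.

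Egr1, an immediate-early transcription factor, had means of 2.31 and 1.98 TPM in untreated and chemotherapy cells at 6 h and of 3.24 and 24.2 TPM at 24 h (2.72 ± 0.14, adjusted p = 3.76e-11). Rassf1, a Ras association domain gene, had the smallest p of the contrast. It fell from 44.6 ± 0.612 to 20.9 ± 0.577 TPM (SD, n = 3) in untreated cells and rose from 48.6 ± 1.7 to 121 ± 2.49 TPM under chemotherapy (2.35 ± 0.055, adjusted p = 4.48e-16). Among its transcript models the processed transcript Rassf1-203 had the highest mean level at 24 h under chemotherapy, 90.1 TPM, against 27 TPM for the protein-coding Rassf1-201. A pair of the large rises rested on uneven libraries. Calb1, encoding the calcium-binding protein calbindin, was at 178, 30.3 and 205 TPM under chemotherapy at 24 h (3.66 ± 0.98, adjusted p = 0.0051), all of it in 1 retained-intron transcript model. Gemin4, part of the SMN complex, was at 7.9, 16.4 and 5.4 TPM under chemotherapy at 24 h, below both groups at 6 h (17.1 to 32.9 TPM), with untreated cells at 24 h between 2.14e-06 and 1.53 TPM (2.68 ± 0.60).

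**Figure D2:**
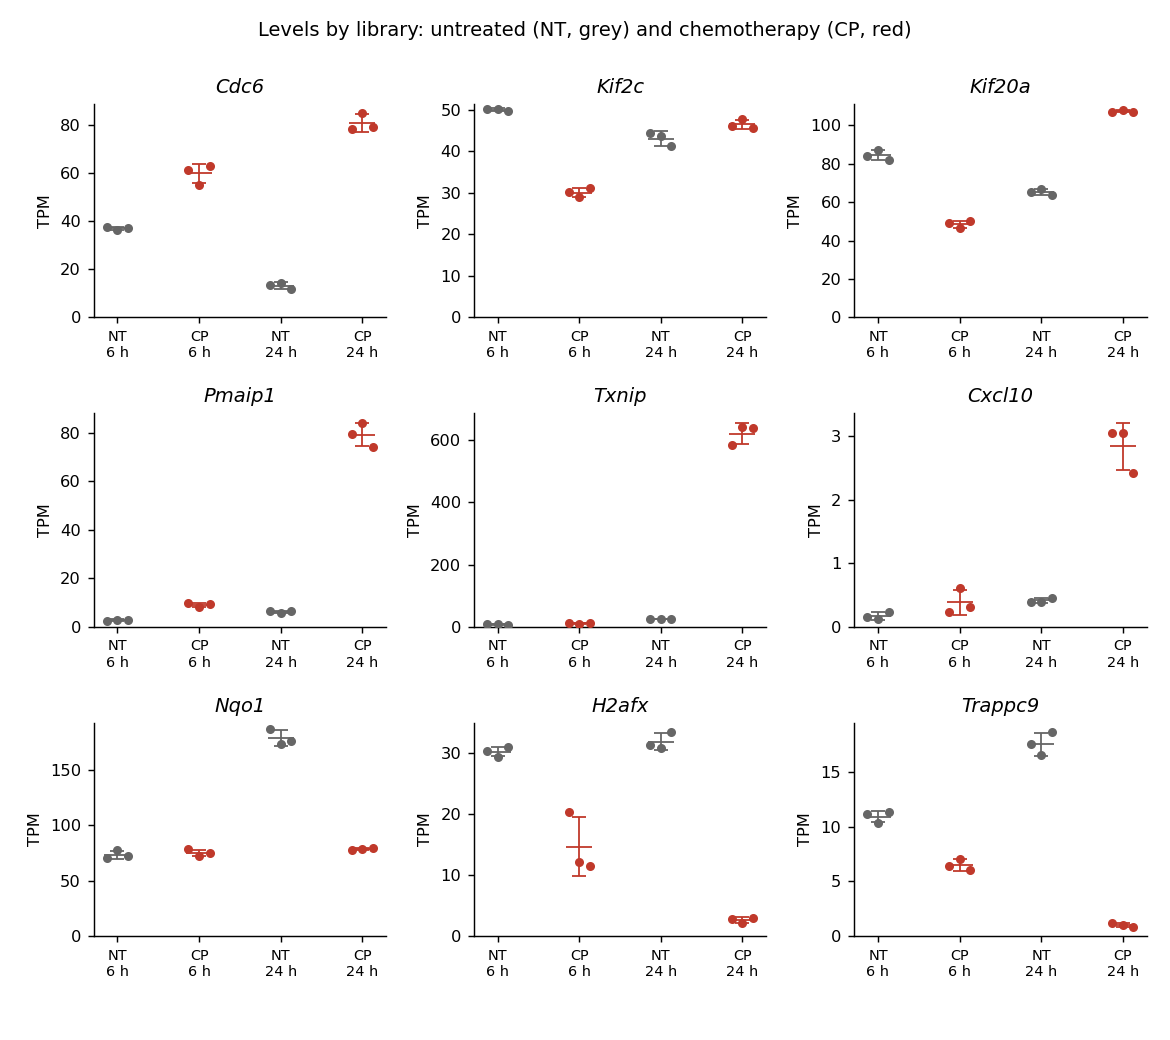
TPM in each library of untreated (NT, grey) and chemotherapy (CP, red) cells at 6 h and 24 h for 9 genes; points are libraries, the dash is the mean and the bars are the SD (n = 3), and each vertical axis starts at 0. Cdc6 fell with time in untreated cells and not under chemotherapy, Nqo1 rose in untreated cells alone, and Kif20a was below untreated cells at 6 h and above them at 24 h.

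The largest falls included genes with long genomic spans. Trappc9 (chr15:72589620-73061204, minus strand), which encodes a subunit of a complex of vesicle transport, was at 11.1, 10.3 and 11.3 TPM in untreated and 6.41, 7.05 and 6.03 TPM in chemotherapy cells at 6 h. At 24 h it was at 17.5, 16.5 and 18.6 TPM in untreated and 1.17, 1.05 and 0.821 TPM in chemotherapy cells, so the groups separated at both times and further at 24 h (-2.53 ± 0.11, adjusted p = 4.62e-12). Cdh13 (chr8:118283733-119324921, plus strand), a cadherin held by a lipid anchor, fell from 24.2 ± 2.21 TPM in untreated to 2.07 ± 0.205 TPM in chemotherapy cells at 24 h, with 12.6 and 10.6 TPM at 6 h (-2.81 ± 0.15). Immp2l, a peptidase of the mitochondrial inner membrane whose gene spans 931499 bp, was at 10.5 and 0.254 TPM at 24 h (-2.81 ± 0.31). Cpq, Babam2, a subunit of a BRCA1 complex, and Cmss1 also fell (-2.27 ± 0.11, -2.14 ± 0.18 and -1.84 ± 0.13), and span 511424, 387279 and 304865 bp.

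Short genes were among the falls as well. H2afx, which encodes the histone variant phosphorylated at DNA breaks and spans 1384 bp, was at 30.4, 29.4 and 30.9 TPM in untreated and 20.3, 12.2 and 11.5 TPM in chemotherapy cells at 6 h. At 24 h the values were 31.3, 30.8 and 33.4 TPM against 2.72, 2.13 and 2.99 TPM (-2.15 ± 0.19, adjusted p = 4.21e-08), so the level dropped under chemotherapy, and the change over time in untreated cells was not called (0.072). Tspoap1 rose in untreated cells from 3.74 to 18.1 TPM and had means of 5.19 and then 2.47 TPM under chemotherapy (-2.84 ± 0.19). Il11, a cytokine that signals through gp130, had a mean of 18.1 TPM under chemotherapy at 6 h and of 5.95 TPM at 24 h, below the 18.5 TPM of untreated cells at 24 h (-1.98 ± 0.30).

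Genes were also grouped by the length of genomic sequence from start to end. Of 460 genes over 200 kb, 318 (69.1%) were lower under chemotherapy at 6 h and 3 higher, and 277 (60.2%) were lower at 24 h and 49 higher, against 13.5% and 24.3% of all genes lower at the 2 times. The median effect was -0.43 at 6 h and -0.37 at 24 h. In the contrast these genes divided: 126 had a higher and 119 a lower effect at 24 h, with a median of 0.03 and a range from -0.78 to 0.60 between the 10th and 90th percentiles. In untreated cells 233 of them rose with time and 58 fell. Of 6201 genes under 20 kb, 220 (3.55%) were lower and 966 higher at 6 h (median 0.08), 1240 lower and 2191 higher at 24 h, and 1442 higher and 1107 lower in the contrast (median 0.01). Between these, medians at 6 h and 24 h were -0.22 and -0.087 for 930 genes of 100 to 200 kb and -0.10 and 0.048 for 1691 genes of 50 to 100 kb, with medians of 0.12 and 0.15 in the contrast. Without rescaling, the low median was thus nearly as far from 0 at 24 h only in the longest class, and moved up in the other 2. After rescaling, medians at 6 h and 24 h were -0.41 and -0.45 over 200 kb, with -0.048 in the contrast. They were -0.21 and -0.16 at 100 to 200 kb and -0.092 and -0.026 at 50 to 100 kb. The direction of the small shift in the longest class thus depended on the scaling. Span goes with other gene properties, such as intron number and expression level, and their part was not tested.

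**Figure D3:**
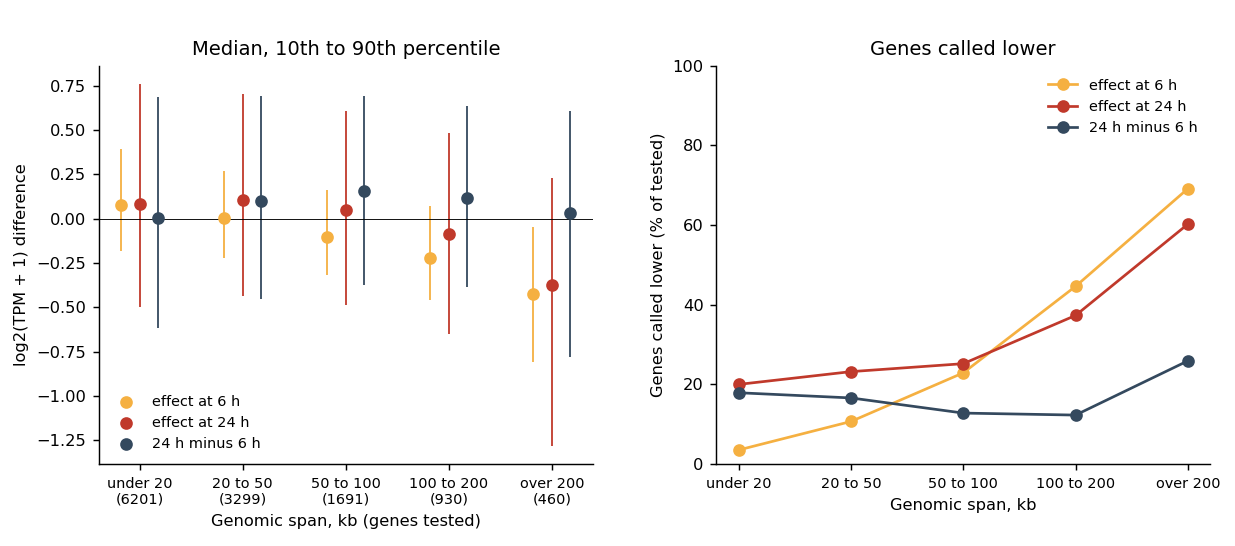
Left, median (point) and 10th to 90th percentile (line) of the chemotherapy effect at 6 h, at 24 h and of their difference, in log2(TPM + 1), by genomic span in kb with the number of genes tested; right, percent of genes called lower. The share called lower rises with span at both times, to 69.1% at 6 h and 60.2% at 24 h over 200 kb. The median difference is highest, 0.15, at 50 to 100 kb and is 0.03 over 200 kb (-0.048 after rescaling, not shown).

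Genes of S phase rose further under chemotherapy relative to untreated cells. Of 41 tested members of the S phase and E2F list, 36 had a higher effect at 24 h and 0 a lower one (median 0.60, against 0.06 for all genes). At 6 h 33 were higher than in untreated cells (median 0.41) and at 24 h 38 were higher and 1 lower (median 1.02). In untreated cells 34 members fell between 6 h and 24 h and 0 rose (median -0.53), against 31.4% and 29.4% of all genes. Under chemotherapy 21 rose and 7 fell (median 0.22), against 36.1% and 27.3% of all genes.

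Cdc6, which loads the replicative helicase at origins, shows both movements. It was at 37.6, 36.1 and 37.1 TPM in untreated cells at 6 h and at 13.6, 14.4 and 11.6 TPM at 24 h, against 61.3, 55.2 and 62.9 TPM and then 78.2, 85 and 79.2 TPM under chemotherapy. The contrast was 1.85 ± 0.11 (adjusted p = 3.02e-10). Ccne2, a cyclin of S phase entry, had the largest difference of the list: 42.3 and 15.8 TPM in untreated cells at the 2 times, and 78.4 ± 13.9 and 156 ± 25.5 TPM under chemotherapy (2.36 ± 0.16). Orc1 and Orc6, subunits of the origin recognition complex, had differences of 1.65 ± 0.13 and 1.12 ± 0.086. Slbp, which binds the stem-loop of histone mRNAs, had means of 54.8 TPM in untreated and 214 TPM in chemotherapy cells at 24 h (1.45 ± 0.12).

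Most genes of G2 and mitosis were below untreated cells at 6 h, and at 24 h they were divided around the untreated level. Of 45 members, 41 were lower than in untreated cells at 6 h and 0 higher (median -0.63), while at 24 h 13 were higher and 12 lower (median 0.02). In the contrast 37 were higher and 3, Aurkb, Cdc25b and Top2a, lower (median 0.61). The call of Aurkb was lost without untreated 6 h replicate 2, chemotherapy 6 h replicate 2, untreated 24 h replicate 3 or chemotherapy 24 h replicate 2. By class, 19 members were called at 6 h and not at 24 h and 11 in opposite directions. Untreated cells had 13 members that rose and 15 that fell with time (median -0.04), so here the movement was mostly in the chemotherapy arm, where 33 rose and 3 fell.

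Cenpe, a kinesin of the kinetochore, was at 38, 41.7 and 41 TPM in untreated and 17.8, 14.5 and 17.4 TPM in chemotherapy cells at 6 h. At 24 h it was at 39.9, 40.1 and 35.9 TPM against 39.8, 42.1 and 39.5 TPM, so that the groups, apart at 6 h, overlapped at 24 h (1.30 ± 0.12, adjusted p = 5.98e-08). Hmmr, a spindle protein also known as the hyaluronan receptor RHAMM, was also lower at 6 h alone (-1.12 ± 0.083 at 6 h and 0.13 ± 0.083 at 24 h). Kif20a, a kinesin of cytokinesis, changed sides: 84, 87.1 and 82 TPM in untreated and 49.2, 46.5 and 50 TPM in chemotherapy cells at 6 h, then 65, 66.8 and 63.5 TPM against 107, 108 and 107 TPM at 24 h (1.50 ± 0.063, adjusted p = 3.91e-12). Ect2, which activates RhoA at the cleavage furrow, and Birc5, encoding survivin, were also lower at 6 h and higher at 24 h (contrasts of 1.22 ± 0.10 and 0.90 ± 0.057). The mitotic kinase genes Aurka and Plk1 and the cyclin gene Ccnb1 rose toward untreated levels (0.69 ± 0.085, 0.78 ± 0.15 and 0.68 ± 0.085). At 24 h Aurka and Ccnb1 were still below untreated cells (-0.38 ± 0.060 and -0.21 ± 0.060), and the effect on Plk1 was -0.25 ± 0.11 (adjusted p = 0.0522).

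**Figure D4:**
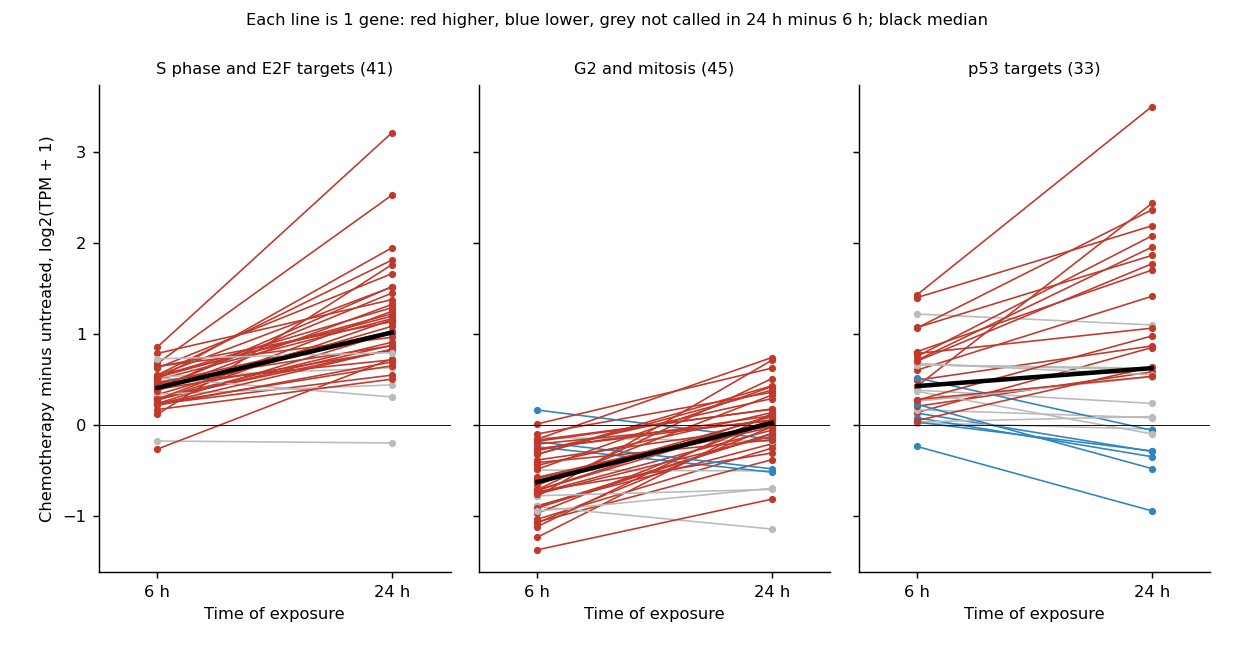
Chemotherapy minus untreated in log2(TPM + 1) at 6 h and 24 h for each tested member of 3 gene lists (1 line per gene; red and blue lines are genes called higher or lower in 24 h minus 6 h, grey lines were not called, and the black line joins the medians). The median rises from 0.41 to 1.02 for S phase, from -0.63 to 0.02 for G2 and mitosis and from 0.43 to 0.63 for p53 targets.

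Promoters of these 2 groups are printed because the groups moved apart at 6 h. Windows of 250 bases before to 50 after a start site, from RefSeq on GRCm38.p6, were found for 9150 of the tested genes (11706 windows), and both strands were searched for fixed letters. The cell cycle genes homology region, TTTGAA, was in 25 of 40 windows of the G2 and mitosis list (62.5%) and in 11.9% of all windows. CCAAT was in 32 of those 40 (80.0%), in 23 of 38 of the S phase list (60.5%) and in 38.4% of all. It was not particular to these groups, being in 17 of 21 windows of cholesterol synthesis (81.0%) and 13 of 19 of MHC class I (68.4%). An E2F-like motif, TTTNNCGC, was in 17 of 38 windows of the S phase list (44.7%) and in 8.37% of all. An SREBP-like motif, TCACNCCAC, was in only 1 of 21 windows of cholesterol synthesis (4.76%) and in 1.1% of all. These are matches of letters and not measured binding. The windows are printed up to 20 bases after the start site, 270 bases in all, with TTTGAA and CCAAT of either strand in capitals for Hmmr (chr11:40733418-40733687, minus strand) and Ect2 (chr3:27153859-27154128, minus strand), and the E2F-like match in capitals for Cdc6 (chr11:98907901-98908170, plus strand) and Orc1 (chr4:108579204-108579473, plus strand).
Hmmr: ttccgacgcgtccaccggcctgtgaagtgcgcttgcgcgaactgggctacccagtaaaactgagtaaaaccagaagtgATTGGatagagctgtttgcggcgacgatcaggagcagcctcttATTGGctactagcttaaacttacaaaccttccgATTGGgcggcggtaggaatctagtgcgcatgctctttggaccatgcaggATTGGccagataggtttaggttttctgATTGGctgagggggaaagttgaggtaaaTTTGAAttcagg
Ect2: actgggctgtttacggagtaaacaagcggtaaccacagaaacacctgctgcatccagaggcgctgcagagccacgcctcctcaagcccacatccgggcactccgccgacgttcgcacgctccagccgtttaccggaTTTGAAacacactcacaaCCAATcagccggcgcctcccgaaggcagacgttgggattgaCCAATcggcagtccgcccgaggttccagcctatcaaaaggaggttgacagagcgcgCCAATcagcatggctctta
Cdc6: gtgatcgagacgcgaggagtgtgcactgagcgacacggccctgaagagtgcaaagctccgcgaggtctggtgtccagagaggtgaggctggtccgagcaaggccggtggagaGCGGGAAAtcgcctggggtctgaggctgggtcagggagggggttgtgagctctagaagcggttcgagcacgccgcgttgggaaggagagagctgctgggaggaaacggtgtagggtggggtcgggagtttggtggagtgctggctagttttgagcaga
Orc1: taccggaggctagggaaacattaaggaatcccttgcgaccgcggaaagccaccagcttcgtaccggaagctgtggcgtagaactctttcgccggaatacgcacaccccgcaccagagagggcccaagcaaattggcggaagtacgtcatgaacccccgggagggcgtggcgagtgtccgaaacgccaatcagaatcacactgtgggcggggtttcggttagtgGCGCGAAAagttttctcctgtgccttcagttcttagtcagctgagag
In Hmmr the homology region begins 9 bases after the start site, with 5 CCAAT boxes on the other strand. In Ect2 it begins 114 bases before the start site. The E2F-like matches begin 138 bases before the start site in Cdc6 and 27 before it in Orc1, both on the other strand.

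Histone genes had another course than S phase genes. Of 17 tested members, 2 were higher and 5 lower in the contrast (median -0.21), against 28.3% and 16.7% of all genes. H1f0, a linker histone of resting cells, was at 102, 101 and 94.7 TPM in untreated and 34.3, 36.8 and 34.5 TPM in chemotherapy cells at 6 h. At 24 h the values were 247, 255 and 259 TPM against 34.9, 36.4 and 35.6 TPM, a level that rose in untreated cells alone (-1.33 ± 0.083, adjusted p = 6.26e-10). The libraries were made by poly(A) selection, while most replication-dependent histone mRNAs lack a poly(A) tail, so the list reads mainly the polyadenylated forms.

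Targets of p53 were already high at 6 h, and 17 of 33 tested members had a higher effect at 24 h and 6 a lower one (median 0.27). The shares of all genes were 28.3% and 16.7%. After rescaling 15 members were higher and 8 lower in the contrast, beside 3013 and 2857 of all 12581 genes. At 6 h 22 were higher and 0 lower (median 0.43), and at 24 h 22 were higher and 5 lower (median 0.63). Pmaip1, which encodes the BH3 protein NOXA, was at 2.39, 2.9 and 2.8 TPM in untreated and 9.62, 8.06 and 9.3 TPM in chemotherapy cells at 6 h. At 24 h it was at 6.44, 5.46 and 6.38 TPM against 79.4, 83.9 and 74.3 TPM, with no overlap at either time (2.07 ± 0.13, adjusted p = 1.06e-09). Mdm2, the ubiquitin ligase that restrains p53, rose under chemotherapy from 116 ± 15.4 to 499 ± 25.1 TPM and in untreated cells from 68.3 to 117 TPM (1.32 ± 0.12). Btg2, an antiproliferative gene, Ephx1, an epoxide hydrolase, and Fas, the death receptor, had differences of 1.30 ± 0.11, 1.07 ± 0.099 and 2.01 ± 0.18.

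Not all members had a higher effect at 24 h. Cdkn1a, the cyclin-dependent kinase inhibitor p21, had effects of 1.22 ± 0.12 at 6 h and 1.10 ± 0.12 at 24 h, and the difference was -0.12 ± 0.17 (adjusted p = 0.596). The 6 members with a lower effect at 24 h were Zmat3, Gadd45a, Xpc, Ddb2, Tigar and Psrc1, among them the damage recognition genes of nucleotide excision repair, Xpc and Ddb2. Of 20 genes of the apoptosis machinery, 7 were higher and 4 lower (median 0.19), shares near the 28.3% and 16.7% of all genes. After rescaling the counts were 4 and 5, and 4 were higher without untreated 6 h replicate 2, chemotherapy 6 h replicate 2 or untreated 24 h replicate 3. The pore-forming Bak1 was at 32.3 ± 2.9 TPM in untreated and 54.5 ± 5.64 TPM in chemotherapy cells at 24 h, after 55 and 55.3 TPM at 6 h (0.73 ± 0.099). The initiator caspase gene Casp9 and the survival gene Bcl2l1 were lower (-0.52 ± 0.14 and -0.32 ± 0.098), and Mcl1, also a survival gene, was higher (0.36 ± 0.094).

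**Figure D5:**
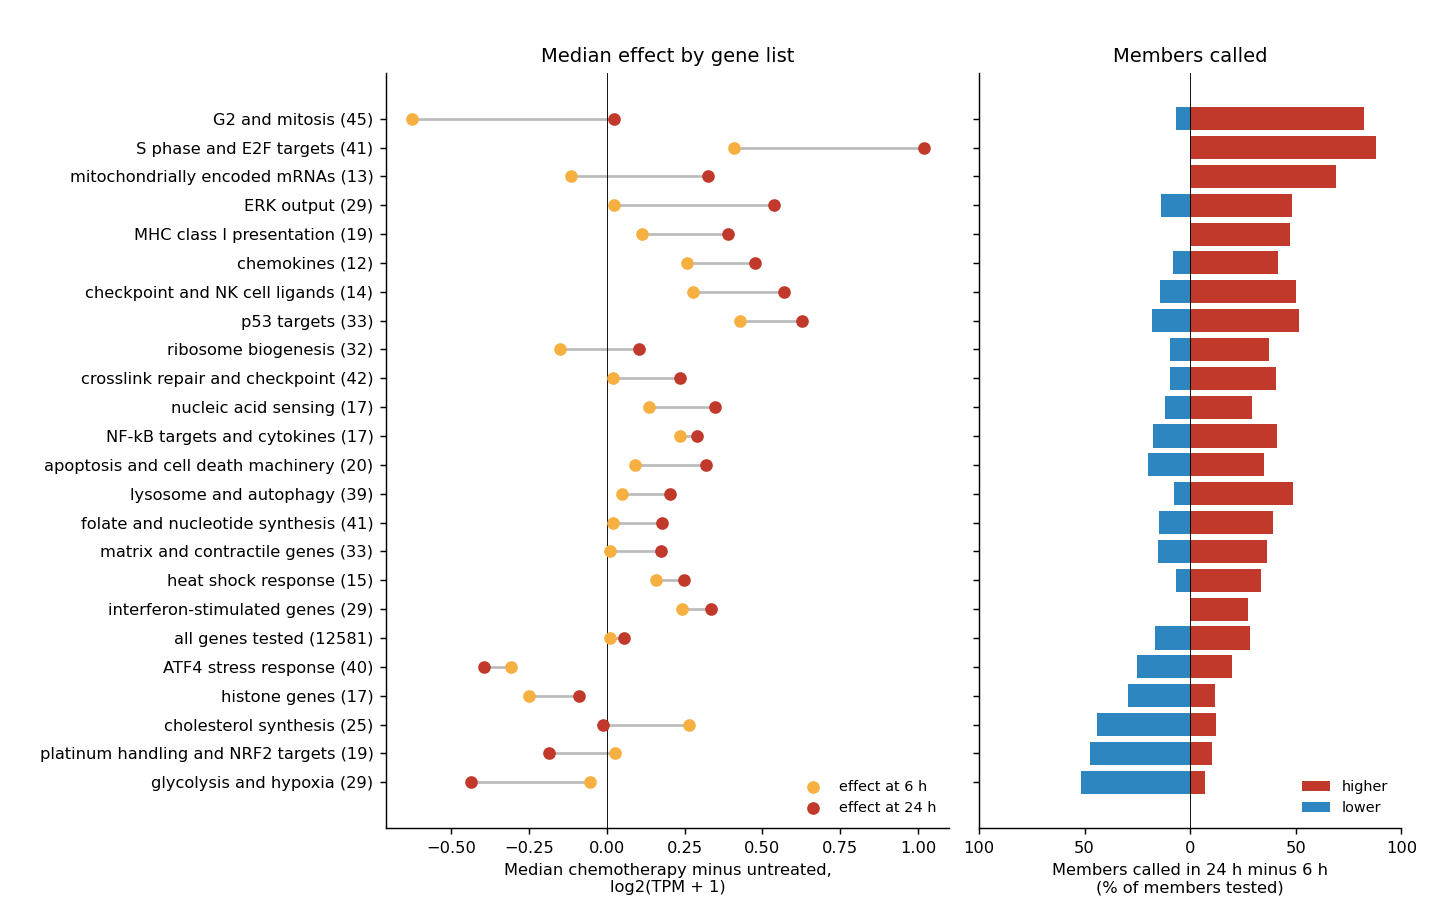
Left, median chemotherapy effect of each gene list at 6 h and at 24 h in log2(TPM + 1), with the number of tested members in brackets; right, percent of tested members called higher (red) or lower (blue) in 24 h minus 6 h. G2 and mitosis has the longest line, from -0.63 to 0.02, and glycolysis and hypoxia has the largest share called lower, 15 of 29 members.

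In folate and nucleotide synthesis, the pathway that pemetrexed blocks, 16 of 41 members were higher and 6 lower (median 0.16). The shares of all genes were 28.3% and 16.7%, and after rescaling 14 members were higher and 7 lower. Tyms, thymidylate synthase and the main target of pemetrexed, was at 81.4 ± 2.81 TPM in untreated and 111 ± 6.37 TPM in chemotherapy cells at 6 h. At 24 h it had dropped in both, to 33.8 ± 3.91 and 78.7 ± 1.63 TPM, by less under chemotherapy (0.76 ± 0.10, adjusted p = 7.87e-06). The ribonucleotide reductase genes Rrm1 and Rrm2 and the salvage kinase gene Dck had differences of 0.86 ± 0.091, 0.99 ± 0.11 and 0.95 ± 0.13. In untreated cells 30 of the 41 members fell over time and 6 rose.

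Among 42 genes of crosslink repair and the checkpoint, 17 were higher and 4 lower (median 0.21), against 28.3% and 16.7% of all genes. After rescaling 11 of the 42 were higher and 6 lower. The checkpoint genes Topbp1 and Chek1 and the Fanconi anaemia genes Fanci and Fancm were called at 24 h and not at 6 h, with contrasts of 0.52 ± 0.094, 0.67 ± 0.13, 0.82 ± 0.17 and 0.71 ± 0.15. Fancd2, the central Fanconi gene and first of the list, was higher (0.29 ± 0.10, adjusted p = 0.0276), a call lost after rescaling (adjusted p = 0.0642) and without untreated 6 h replicate 2, chemotherapy 6 h replicate 2, untreated 24 h replicate 3 or chemotherapy 24 h replicates 2 or 3. Fanca was not called (-0.17 ± 0.095, adjusted p = 0.164).

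Genes of platinum handling and of the NRF2 oxidant response were lower in 9 of 19 cases and higher in 2 (median -0.34, and -0.21 without chemotherapy 24 h replicate 2). Nqo1, a quinone reductase and standard NRF2 target, was at 70.1, 77.4 and 71.9 TPM in untreated and 78.3, 72.5 and 74.8 TPM in chemotherapy cells at 6 h. At 24 h it was at 187, 174 and 176 TPM in untreated cells, while the chemotherapy libraries, at 77.5, 78.4 and 79.3 TPM, stayed close to the 6 h libraries and far below untreated cells at 24 h (-1.22 ± 0.095, adjusted p = 1.11e-08). Slc7a11, the cystine transporter, had the same course, from 8.62 to 25 TPM in untreated cells and from 7.12 to 8.62 TPM under chemotherapy (-1.18 ± 0.15). Txnrd1, thioredoxin reductase, and Abcc1, a drug efflux pump, were lower (-0.86 ± 0.089 and -0.76 ± 0.086). Of the copper transporters that also carry cisplatin, Slc31a1 (CTR1), the importer, was lower (-0.60 ± 0.092) and Slc31a2 (CTR2) and Atp7a, an exporter, were higher (1.23 ± 0.12 and 1.04 ± 0.19).

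Cxcl10, which encodes an interferon-induced chemokine that attracts T cells, was low in all 4 groups and rose under chemotherapy at 24 h. It was at 0.145, 0.125 and 0.233 TPM in untreated and 0.232, 0.613 and 0.303 TPM in chemotherapy cells at 6 h, and at 0.39, 0.396 and 0.456 TPM and 3.05, 3.06 and 2.42 TPM at 24 h. The 3 chemotherapy libraries at 24 h lay above the other 9, and the groups overlapped at 6 h. In the whole series only chemotherapy and combination libraries at 24 h reached 1 TPM. Cxcl10 thus passed the filter through groups where it was high, and its separation is partly a result of that. The effect was 0.24 ± 0.12 at 6 h (adjusted p = 0.151) and 1.44 ± 0.12 at 24 h, a difference of 1.20 ± 0.16 (adjusted p = 9.27e-06). Of the 12 chemokine genes tested, 5 were higher and 1 lower (median 0.29), against 28.3% and 16.7% of all genes. Cxcl1, a neutrophil chemokine, Cx3cl1, or fractalkine, and Ccl9 had differences of 0.97 ± 0.17, 0.76 ± 0.12 and 1.59 ± 0.31. Ccl2, a monocyte chemokine, was the 1 lower: it was higher under chemotherapy at 6 h (81.5 ± 15.8 against 45.4 ± 1.77 TPM) and not apart from untreated cells at 24 h (119 ± 6.89 against 113 ± 1.67 TPM), a contrast of -0.73 ± 0.16. Without chemotherapy 6 h replicate 1 the list had 2 lower members.

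The promoter window of Cxcl10 (chr5:92348870-92349139, minus strand, RefSeq on GRCm38.p6) is shown with the match to an interferon response motif (GAAA, any 2 bases, GAAA) in capitals, 213 bases before the start site on the same strand.
Cxcl10: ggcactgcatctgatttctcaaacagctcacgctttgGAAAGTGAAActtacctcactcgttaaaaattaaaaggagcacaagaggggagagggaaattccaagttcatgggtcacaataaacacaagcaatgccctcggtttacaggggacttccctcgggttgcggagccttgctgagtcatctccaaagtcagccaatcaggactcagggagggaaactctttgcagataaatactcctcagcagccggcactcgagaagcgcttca
The motif was in 10 of 24 windows of the interferon-stimulated list (41.7%), 5 of 19 of the MHC class I list (26.3%) and 2.93% of all windows.

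Of 29 tested interferon-stimulated genes 8 were higher and 0 lower, a share near the 28.3% of all genes called higher, with a median of 0.08 close to the 0.06 of all genes. After rescaling 7 were higher and 2 lower. At 6 h 11 were already higher than in untreated cells, and 17 at 24 h, against 11.3% and 34.9% of all genes. Irf1, an interferon regulatory factor, was at 16 ± 0.68 TPM under chemotherapy at 6 h and 25.8 ± 0.744 TPM at 24 h, against 9.5 and 10.3 TPM in untreated cells (0.54 ± 0.087). Ifi35 was also higher (0.53 ± 0.10), as were Oas1a, Xaf1 and Usp18, which were at or below 2.94 TPM in all 12 libraries (0.74 ± 0.13, 1.16 ± 0.23 and 0.69 ± 0.17). Irf7 had a contrast of 0.30 ± 0.28 and was not called. With a minimum mean of 5 TPM, 3 members were higher.

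For MHC class I presentation, 9 of 19 members were higher and 0 lower (median 0.37, and 0.22 without chemotherapy 24 h replicate 2). The chaperone genes Calr, Canx and Pdia3, which also serve protein folding in general, had differences of 0.55 ± 0.10, 0.50 ± 0.087 and 0.42 ± 0.090. Calr fell with time in untreated cells, from 857 ± 20.7 to 442 ± 19.5 TPM, and less under chemotherapy, from 871 ± 33.3 to 661 ± 75.9 TPM. H2-T22, a non-classical class I gene, and Psmb8, a subunit of the immunoproteasome, were higher (0.38 ± 0.058 and 0.74 ± 0.14), the latter at 1.32 TPM or less. Tap1, the peptide transporter, was higher under chemotherapy at both times (0.82 ± 0.17 and 0.99 ± 0.17) and was not called in the contrast (adjusted p = 0.622). Of 17 genes of nucleic acid sensing 5 were higher and 2 lower (median 0.20), shares near those of all genes (28.3% and 16.7%). Tmem173, which encodes STING, was at 44.9 and 52.5 TPM at 6 h and at 39 and 74.1 TPM at 24 h (0.69 ± 0.070), and Eif2ak2, the kinase PKR, rose at 24 h (0.78 ± 0.13).

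Among 14 tested ligands read by T and NK cells, 7 were higher and 2, Nectin2 and Icosl, lower (median 0.28). The shares of all genes were 28.3% and 16.7%, and after rescaling 5 members were higher and 2 lower. The calls of Nectin2 and Icosl were both lost without chemotherapy 6 h replicate 3, untreated 24 h replicate 1 or chemotherapy 24 h replicate 2. The call of Nectin2 was also lost without untreated 6 h replicates 1 or 2, chemotherapy 6 h replicates 1 or 2, untreated 24 h replicate 3 or chemotherapy 24 h replicate 3. Cd80, a costimulatory ligand, was at 0.323, 0.243 and 0.376 TPM in untreated and 0.672, 0.639 and 0.992 TPM in chemotherapy cells at 6 h. At 24 h the values were 0.678, 0.563 and 0.651 TPM against 10.8, 12.2 and 10.4 TPM, with the chemotherapy libraries above all others (2.47 ± 0.12, adjusted p = 2.63e-11). Lgals9, encoding galectin-9, and the NKG2D ligand genes Raet1e and Raet1d were higher (0.97 ± 0.074, 0.52 ± 0.11 and 0.66 ± 0.17). Cd274, encoding PD-L1, had effects of 0.34 ± 0.087 and 0.60 ± 0.087 and was not called in the contrast (adjusted p = 0.0889).

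Of 17 NF-kB targets and cytokines, 7 were higher and 3, Nfkb1, Vcam1 and Il11, lower (median 0.19). The shares of all genes were 28.3% and 16.7%, and after rescaling 7 members were higher and 4 lower. The call of Nfkb1 was lost without untreated 6 h replicate 1, chemotherapy 6 h replicate 1, untreated 24 h replicate 3 or chemotherapy 24 h replicates 2 or 3. Nfkbia, the inhibitor of NF-kB and itself a target, was at 26.7 and 37.4 TPM at 6 h and at 15.1 and 50.5 TPM at 24 h (1.21 ± 0.12). Nfkb2, Tnfaip3, the ubiquitin-editing enzyme A20, and Traf1 were also higher (0.95 ± 0.13, 0.65 ± 0.10 and 1.11 ± 0.18).

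Of 29 genes of ERK output, which MEK drives, 14 were higher and 4 lower (median 0.39), against 28.3% and 16.7% of all genes. Between 8 and 9 were higher without any 1 of untreated 6 h replicate 3, chemotherapy 6 h replicates 2 or 3, untreated 24 h replicates 1 or 2, or chemotherapy 24 h replicate 1. Dusp1, a stress-induced phosphatase, was at 3.11 and 5.02 TPM at 6 h and at 3.38 and 19 TPM at 24 h (1.64 ± 0.086), and Dusp5, an ERK phosphatase, was higher by 0.71 ± 0.11. The feedback inhibitor genes Spred3 and Spry1 were lower (-0.89 ± 0.13 and -0.74 ± 0.13), and Dusp6, the ERK phosphatase often read as a measure of the pathway, was not called (-0.04 ± 0.20, adjusted p = 0.892).

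In the ATF4 amino acid stress list 8 of 40 members were higher and 10 lower (median -0.07), against 28.3% and 16.7% of all genes. Without chemotherapy 6 h replicate 1 or untreated 24 h replicate 1, 6 were lower, and after rescaling 6 were higher and 15 lower. As a group it was below untreated cells at both times, with 29 members lower and 0 higher at 6 h and 27 lower and 5 higher at 24 h. Pycr1, an enzyme of proline synthesis, rose in untreated cells from 13.6 ± 0.606 to 58.2 ± 5.27 TPM and under chemotherapy from 8.66 ± 0.168 to 11.7 ± 0.637 TPM (-1.62 ± 0.12, adjusted p = 7.88e-09). Atf5 and Cebpg, both bZIP factors, were lower (-1.07 ± 0.11 and -0.84 ± 0.10). Ddit3, which encodes CHOP, rose in both arms, from 29.9 to 132 TPM in untreated cells and from 20.8 to 162 TPM under chemotherapy (0.80 ± 0.096), and Ppp1r15a, which encodes GADD34, was higher by 0.84 ± 0.097. Pycr1 is shown (chr11:120643729-120643998, minus strand) with its match to an ATF4-like motif, TGATGNAA, in capitals. The match begins 103 bases before the start site on the same strand, and the motif was in 12 of 36 windows of this list (33.3%) and in 2.18% of all.
Pycr1: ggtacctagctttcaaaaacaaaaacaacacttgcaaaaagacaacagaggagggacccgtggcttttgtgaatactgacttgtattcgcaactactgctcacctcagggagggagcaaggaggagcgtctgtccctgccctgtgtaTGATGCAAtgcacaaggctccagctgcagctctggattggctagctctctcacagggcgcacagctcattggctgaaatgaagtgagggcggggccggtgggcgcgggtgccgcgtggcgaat

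Cholesterol synthesis turned from higher to level. At 6 h 14 of 25 members were higher than in untreated cells and 0 lower (median 0.26), at 24 h 9 were higher and 5 lower (median -0.01), and in the contrast 3 were higher and 11 lower (median -0.24). Sqle, squalene epoxidase, was at 30.8, 30.1 and 33.7 TPM in untreated and 41.3, 35.2 and 39.3 TPM in chemotherapy cells at 6 h, then at 27.3, 27.7 and 29.8 TPM against 13, 14.3 and 12.6 TPM at 24 h (-1.32 ± 0.091, adjusted p = 2.12e-09). The order of the groups was thus reversed, without overlap at either time. Sc5d, a desaturase of the late pathway, and Acat2 were among the 3 higher members (0.84 ± 0.070 and 0.59 ± 0.10).

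In glycolysis and hypoxia, 15 of 29 members were lower and 2, Pfkfb3 and Kdm3a, higher (median -0.35), the former not without chemotherapy 6 h replicate 2. At 6 h 4 were lower than in untreated cells and at 24 h 21. Pkm, pyruvate kinase, was at 2590 ± 24.2 and 2510 ± 33.4 TPM in untreated and chemotherapy cells at 6 h and at 2340 ± 38.9 and 1510 ± 85.5 TPM at 24 h (-0.58 ± 0.069). Tpi1, triosephosphate isomerase, Vegfa, the vascular growth factor, and Adm, adrenomedullin, were lower (-0.45 ± 0.070, -0.77 ± 0.10 and -0.83 ± 0.13). The glucose transporter gene Slc2a1 had a contrast of -0.46 ± 0.20 (adjusted p = 0.0668).

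Most genes of ribosome biogenesis fell with time in both arms. In untreated cells 31 of 32 members fell with time (median -0.91) and under chemotherapy 29 (median -0.61), and in the contrast 12 were higher, 3 lower and 17 not called (median 0.23), against 28.3% of all genes higher. After rescaling 5 were lower. Tsr1, a factor of small subunit maturation, was at 130 and 58.2 TPM in untreated cells at the 2 times and at 112 and 115 TPM under chemotherapy (1.19 ± 0.11). Nop2, Nolc1, Polr1a, the largest subunit of RNA polymerase I, and Nop58 had differences of 0.82 ± 0.10, 0.78 ± 0.096, 0.78 ± 0.10 and 0.72 ± 0.099. Ncl, or nucleolin, was not called (0.15 ± 0.087, adjusted p = 0.186).

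Of 39 genes of the lysosome and autophagy, 19 were higher and 3, Ctsb, Hexa and Mcoln1, lower (median 0.17). After rescaling 13 were higher and 6 lower. Map1lc3b, which encodes the autophagosome protein LC3B, was at 146 and 144 TPM at 6 h and at 152 ± 3.45 and 247 ± 28.7 TPM at 24 h (0.71 ± 0.089). Atg12 and Atg14, of autophagosome formation, and Tpp1, a lysosomal peptidase, were higher (0.73 ± 0.068, 0.77 ± 0.099 and 0.62 ± 0.058). In the heat shock list 5 of 15 were higher and 1, Hspb8, lower (median 0.094, and 0.00014 after rescaling), with 28.3% of all genes higher. Cryab, a small heat shock protein gene, was at 0.391 TPM in untreated and 4.51 TPM in chemotherapy cells at 24 h (1.83 ± 0.19), and the chaperone gene Dnajb1 was higher by 0.92 ± 0.078. Hspa1b was at 6.48, 1.85 and 2.15 TPM under chemotherapy at 6 h and was not called in the contrast (-0.53 ± 0.36).

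Of 13 mRNAs encoded by mitochondrial DNA, 9 were higher and 0 lower (median 0.44), with 0 called at 6 h in either direction and 7 higher at 24 h. The complex I subunit mt-Nd2 was at 3690 ± 184 TPM in untreated and 6170 ± 468 TPM in chemotherapy cells at 24 h, after 3860 and 3570 TPM at 6 h (0.86 ± 0.085). The complex I subunits mt-Nd1 and mt-Nd5 and mt-Cytb of complex III had differences of 0.79 ± 0.096, 0.90 ± 0.16 and 0.81 ± 0.091. The complex IV subunit mt-Co1, by contrast, was at 21200 TPM in both groups at 24 h and 11600 TPM in both at 6 h (-0.0083 ± 0.089, adjusted p = 0.948). These transcripts take a large share of TPM, and their part in the values of other genes was not tested beyond the rescaling above.

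In the matrix and contractile list 12 of 33 members were higher and 5 lower (median 0.16), near the 28.3% and 16.7% of all genes, and after rescaling 10 and 7. Timp2, a metalloproteinase inhibitor, Loxl2, which crosslinks collagen, and the proteinase genes Mmp3 and Mmp13 were higher (1.05 ± 0.091, 0.72 ± 0.11, 0.78 ± 0.12 and 0.66 ± 0.13). Acta2, smooth muscle actin, was lower, at 3.16 ± 0.142 TPM against 6.35 ± 0.349 TPM in untreated cells at 24 h (-0.83 ± 0.14).

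The change of the response over time was set beside those of the other treatments. The trametinib and combination values share the untreated libraries with the chemotherapy values and are given side by side. The tests are of chemotherapy over time against each treatment over time, in which the untreated libraries cancel. Against trametinib 6184 genes were called (49.2%), 4202 (33.4%) with a higher change over time under chemotherapy and 1982 (15.8%) with a lower one. The combination differed from chemotherapy for 4237 genes (33.7%). The change over time was higher under the combination for 1354 (10.8%) and lower for 2883 (22.9%). List counts in these tests are to be read against these shares. Higher and lower refer here to this change and not to the level. Txnip had a lower change under the combination (-1.51 ± 0.19), yet means of 883 TPM there and 621 TPM under chemotherapy at 24 h.

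Of the p53 targets, 27 of 33 were higher over time under chemotherapy than under trametinib and 2 lower. The change over time under the combination was higher for 1 and lower for 19 than under chemotherapy. The list medians of 24 h minus 6 h were 0.27 for chemotherapy, -0.71 for trametinib and -0.14 for the combination. For Pmaip1 the values were 2.07, -1.41 and 0.73, and both differences were called (3.48 ± 0.13 against trametinib, and -1.34 ± 0.13 for the combination minus chemotherapy). Genes of G2 and mitosis had medians of 0.61, -0.33 and 0.57, with 41 of 45 higher than under trametinib, and 10 higher and 6 lower under the combination than under chemotherapy. For Kif20a the values were 1.50, -0.24 and 1.47, and the difference between the combination and chemotherapy was -0.023 ± 0.063 (adjusted p = 0.819).

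Cholesterol synthesis went the other way, with medians of -0.24, 1.13 and 0.27, 23 of 25 members lower over time than under trametinib, and 12 higher and 0 lower under the combination. Matrix and contractile genes had medians of 0.16, 0.61 and 0.79, with 20 of 33 lower than under trametinib and 22 higher and 2 lower under the combination. Cxcl10 changed by 1.20 ± 0.16 under chemotherapy, 0.14 ± 0.16 under trametinib and 2.77 ± 0.16 under the combination, and both tested differences were called (1.07 ± 0.16 against trametinib, adjusted p = 2.51e-05, and 1.56 ± 0.16 for the combination minus chemotherapy, adjusted p = 8.21e-07). H2afx changed by -2.15 ± 0.19, -0.50 ± 0.19 and -0.21 ± 0.19 in the same order, with differences of -1.65 ± 0.19 and 1.94 ± 0.19 that were both called.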

How the data were processed

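RNA was measured by stranded poly(A) sequencing. The tools named in the submitters' processing notes are bcl2fastq 2.17.1.14 and kallisto 0.45, with the build GRCm38, and the values the authors deposited are TPM per transcript. For the transcript set, no version is given in the sources used here. TPM keeps no depth, so read numbers are unknown. The series' design text names DESeq2, which needs counts and was not used.

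TPM of 79662 of 82934 transcripts were summed to 28328 genes with GENCODE M21. The other 3272 carried 4.45% to 5.98% of a library and were tested by themselves. A gene was tested if 3 or more of the 24 libraries reached 1 TPM, on the scale of log2(TPM + 1), which understates the change of low genes, with limma 3.58.1 in R 4.3.3 (8 group means, 16 residual degrees of freedom, variance trend, two-sided, Benjamini-Hochberg). All libraries entered the fit, and none held the same values as another.

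The comparison, the 23 gene lists and the markers were chosen with earlier results of these data known. Of 680 listed genes, 621 passed the filter, and 59 below it are in no count. Some members are not reported here by name. Members of families with near-identical copies are uncertain, since shared reads were not checked: histone genes, Bglap2, Ces2e and Ces2g, H2-T22, Raet1d and Raet1e, Hspa1b and the mitochondrial genes with nuclear copies. Genes were named by a rule: Cxcl10, the 12 largest rises and falls with at least 5 TPM, the 4 smallest p of each class and direction, and from each list its first 2 members, the 5 (or fewer) most significant called ones and, beyond the rule, members singled out, after their values were seen, as the few of a direction. Where a gene was named for its size or p, libraries that do not overlap are partly a result of that choice. On simulated data with 12581 genes and 50 changed by each fold, the contrast recovered 8 at 1.25-fold, 26 at 1.5-fold, 41 at 2-fold and 48 at 4-fold, and called 0 with none changed. The simulation drew independent noise for each gene and changed few genes, while 45.1% of genes were called in the data. Its recovery need not hold for the data, and effects shared by the genes of a library were not simulated. Alternatives were other pseudocounts, filters, rescaling, the 12 libraries alone, protein-coding genes alone, no trend, library weights, replicate blocks, each library left out, and the Bonferroni rule.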

Additional observations from a re-analysis of the deposited data

Results flagged for a closer look

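The effect of chemotherapy differed between 6 h and 24 h by limma's test of the difference itself for 5668 genes, and 470 of these were called in opposite directions at the 2 times. The time course also differed from that of trametinib for 6184 genes and from that of the combination for 4237.

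Named genes with opposite directions are given with the 24 h minus 6 h difference. Lower at 6 h and higher at 24 h were Kif20a (1.50), Hmgb2, a chromatin protein (1.37), Ect2 (1.22), Tsr1 (1.19), Rangap1, of nuclear transport (1.00), Ddx39b, an RNA helicase of mRNA export (0.93), the histone genes Hist1h3d (0.91) and Hist1h2be (0.67), Birc5 (0.90), Ddit3 (0.80) and Canx (0.50). Higher at 6 h and lower at 24 h were Tspoap1 (-2.84), Samd1 (-1.40), Sox12 (-1.39), Sqle (-1.32), Slc48a1, a haem transporter (-1.23), Prkra, an activator of PKR (-1.0), Spry1 (-0.74), Tigar, a p53 target of sugar metabolism (-0.70), Mcoln1, a lysosomal channel (-0.55), Fdft1, or squalene synthase (-0.54), and Mavs, an adaptor of RNA sensing (-0.22).

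Among transcripts that the annotation did not match and that entered no gene value, 95 of 1017 tested (9.34%) were called in the same contrast, 37 higher and 58 lower.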

How the results depend on the processing

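The labels do not say whether a replicate number marks a shared culture, and the data gave no clear pairing: of 18 same-numbered pairs 6 had deviations correlated above 0.1 (from -0.28 to 0.33), and 4 had their own number as best partner. With a replicate block 5517 genes were called, 5476 of them also called without it, and with a block within each time 5392, of which 5332 were shared. Under median ratio rescaling, 94 genes had the smaller effect at 24 h. With library weights the classes grew to 1335 larger at 24 h, 154 smaller, 939 called only at 6 h and 1218 opposite. Under the Bonferroni rule 1409 genes were called, 994 higher and 415 lower, with classes of 93 larger, 1 smaller, 1170 only at 24 h, 57 only at 6 h, 13 opposite and 75 at neither time, and 1845 against trametinib and 849 for the combination. With each library left out in turn, counts ran from 267 to 591 for opposite directions and from 32 to 72 for smaller at 24 h, and the contrast called 5137 to 5754 genes. Values of the other sign arose in 4 genes, none called in the contrast: Cdkn1a with library weights (0.12) and in fits without 1 library (-0.22 to 0.046), Tap1 with a pseudocount of 0.1 (-0.025), Dusp6 with library weights (0.10) and without 1 library (-0.097 to 0.035), and mt-Co1 without 1 library (-0.052 to 0.035). Of 158 called genes followed singly, 0 reversed, 56 lost the call under the Bonferroni rule, and 11 under some other alternative: Fancd2, B2m, Cd47, Spry4, Hist3h2a, Nectin2, Icosl, Psrc1, Aurkb, Nfkb1 and Pfkfb3. Depth is unknown, so which low genes are limited by read number was not tested.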
